A study of Mus musculus with 6 samples.

Results

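The IL-6 family of cytokines and receptors was followed array by array in lungs of endotoxaemic mice. It was taken as 10 genes: the ligands Il6, Osm, Lif and Il11, the ligand-binding receptor chains Il6ra and Il11ra1, and the signalling receptor chains Il6st, Osmr, Lifr and Il31ra. They were listed by name among 22911 genes matched to probes of the array. For each gene the probe with the highest mean signal over all 6 arrays was used. Of the 10 members, 9 were well above background on all 6 arrays and were among the 16370 genes tested, and Il31ra was not tested.

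Cytokines of this family act through receptor complexes that share gp130, the protein encoded by Il6st. IL-6 first binds the IL-6 receptor (Il6ra) and IL-11 its own receptor (Il11ra1), after which gp130 pairs with itself, whereas LIF joins gp130 to the LIF receptor (Lifr) and oncostatin M (Osm) joins it to the OSM receptor (Osmr). The IL-31 receptor chain (Il31ra) pairs with the OSM receptor instead. JAK kinases bound to these chains then activate STAT3, which induces its own inhibitor Socs3 and acute phase genes, and in endotoxaemia IL-6 is made by macrophages, endothelium and stromal cells of the lung among others.

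All groups were male C57BL6 mice of 10 weeks, starved for 16 h and then given lipopolysaccharide (LPS) i.p. at 20 mg·kg−1. The 3 mice of the control group received saline, and 3 mice received recombinant human thrombomodulin (rhTM), both at 3 h and 24 h after LPS. Lungs were harvested at 30 h, and RNA from every lung went onto a separate 1-colour Agilent mouse array, so whole lung was measured at a single time. No array of mice without LPS was analysed here, so values describe rhTM against saline within endotoxaemia and not the response to LPS itself. The control injection is named saline in the labels and PBS in the general animal methods.

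Signals are given as multiples of the array's own 75th percentile, so a value of 1 equals that percentile. Probes differ in brightness, so levels of different genes were not ranked, and sums over marker genes weigh bright probes most. The scanner output and the authors' table of values disagreed on which mouse an array belonged to. For 4 of the 6 columns, at least 99.81% of probes matched the scan of that mouse (tolerance 0.1%), but the columns of saline replicate 1 and rhTM replicate 2 held each other's scanner values. The deposited scans were taken as labelled, and values from the table stand beside them. On each array 36243 to 40647 probes were well above background, and the spike-in slope was 0.826 for saline replicate 1 as scanned and 1.07 to 1.09 elsewhere. That array shared slide 2 with rhTM replicate 3, and the other 4 arrays were on slide 1. In the table's assignment, both slide 2 arrays came from rhTM-treated mice, replicates 2 and 3. Of 6 lung markers, including Sftpc, Ager and Scgb1a1, 6 were well above background on every array.

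The sequences before the start of 3 genes are shown because their signal on the array of rhTM replicate 1 was well above that on every other array, as described further on: the cytokine gene Il6, the receptor gene Osmr and the feedback inhibitor gene Socs3. Each is the 250 bases before the RefSeq start site on the gene's own strand, from RefSeq with assembly GRCm38.p6. Il6 lies at chr5:30012864-30013113 on the plus strand, Osmr at chr15:6874314-6874563 on the minus strand and Socs3 at chr11:117969367-117969616 on the minus strand. Capitals mark matches on either strand to the letters TTCNNNGAA (a STAT motif), GGGANTTTC (most of an NF-kappaB motif) or TGANTCA (an AP-1 motif), where N is any base.
Il6: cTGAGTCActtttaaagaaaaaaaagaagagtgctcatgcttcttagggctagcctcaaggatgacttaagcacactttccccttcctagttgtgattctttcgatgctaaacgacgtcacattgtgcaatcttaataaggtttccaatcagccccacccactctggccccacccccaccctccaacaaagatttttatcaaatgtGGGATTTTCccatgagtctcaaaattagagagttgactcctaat
Osmr: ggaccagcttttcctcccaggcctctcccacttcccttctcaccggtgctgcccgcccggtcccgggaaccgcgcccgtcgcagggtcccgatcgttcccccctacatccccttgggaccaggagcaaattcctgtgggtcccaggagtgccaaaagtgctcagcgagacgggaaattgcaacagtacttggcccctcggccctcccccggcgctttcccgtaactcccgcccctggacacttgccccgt
Socs3: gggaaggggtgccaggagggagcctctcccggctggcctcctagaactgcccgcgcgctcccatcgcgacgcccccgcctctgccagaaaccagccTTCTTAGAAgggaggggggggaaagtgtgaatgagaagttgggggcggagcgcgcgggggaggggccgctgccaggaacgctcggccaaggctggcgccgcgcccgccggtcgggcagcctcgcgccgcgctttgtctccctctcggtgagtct
The Il6 window held an NF-kappaB match at 44 to 36 bases before the start and an AP-1 match at 249 to 243 bases before it. The Socs3 window held a STAT match at 154 to 146 bases before the start, and none of the motifs overlapped. Of 32851 promoter windows of the same length, 7.02% held the STAT letters, 0.941% the NF-kappaB letters and 6.75% the AP-1 letters. The Osmr window held none of these letters, nor did those of Il6st and Lifr. A match describes letters only, since binding was not measured here.

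None of the 9 members tested passed the comparison of rhTM-treated with saline-treated mice after adjustment over all genes, by the scans or by the table without a slide term. By the scanner output 0 of 16370 genes passed an adjusted p of 0.05 in limma (0%), and all members had an adjusted p of 0.9999. Without adjustment, 306 genes (1.87%) and 0 members had a p under 0.05. In the authors' values, 0 of 16320 genes passed (0%), and 2279 genes (14%) had an unadjusted p under 0.05, with Il6 and Lif among them. The cut-offs of the methods, a fold of 2 or 0.5 with an unadjusted p of less than 0.01, let 0 members pass in either assignment, beside 6 of all genes (0.0367%) in the scans and 65 (0.398%) in the table. Adding the slide block to the table changed both counts. After adjustment 432 genes (2.65%) and 2 members, Il6 and Osmr, then passed in limma, and 580 genes (3.55%) and 1 member, Il6, passed the cut-offs. That contrast rests on rhTM replicate 1, as given under Il6. The methods' t-test gave 0 genes after Benjamini-Hochberg adjustment, 340 genes at an unadjusted p under 0.05, and 1 gene (0.00611%) and 0 members past those cut-offs. With 3 arrays per group the exact permutation test cannot go below p = 0.10. Because these are RNA levels of whole lung, fewer cells of a type and less RNA per cell cannot be told apart.

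**Figure D1:**
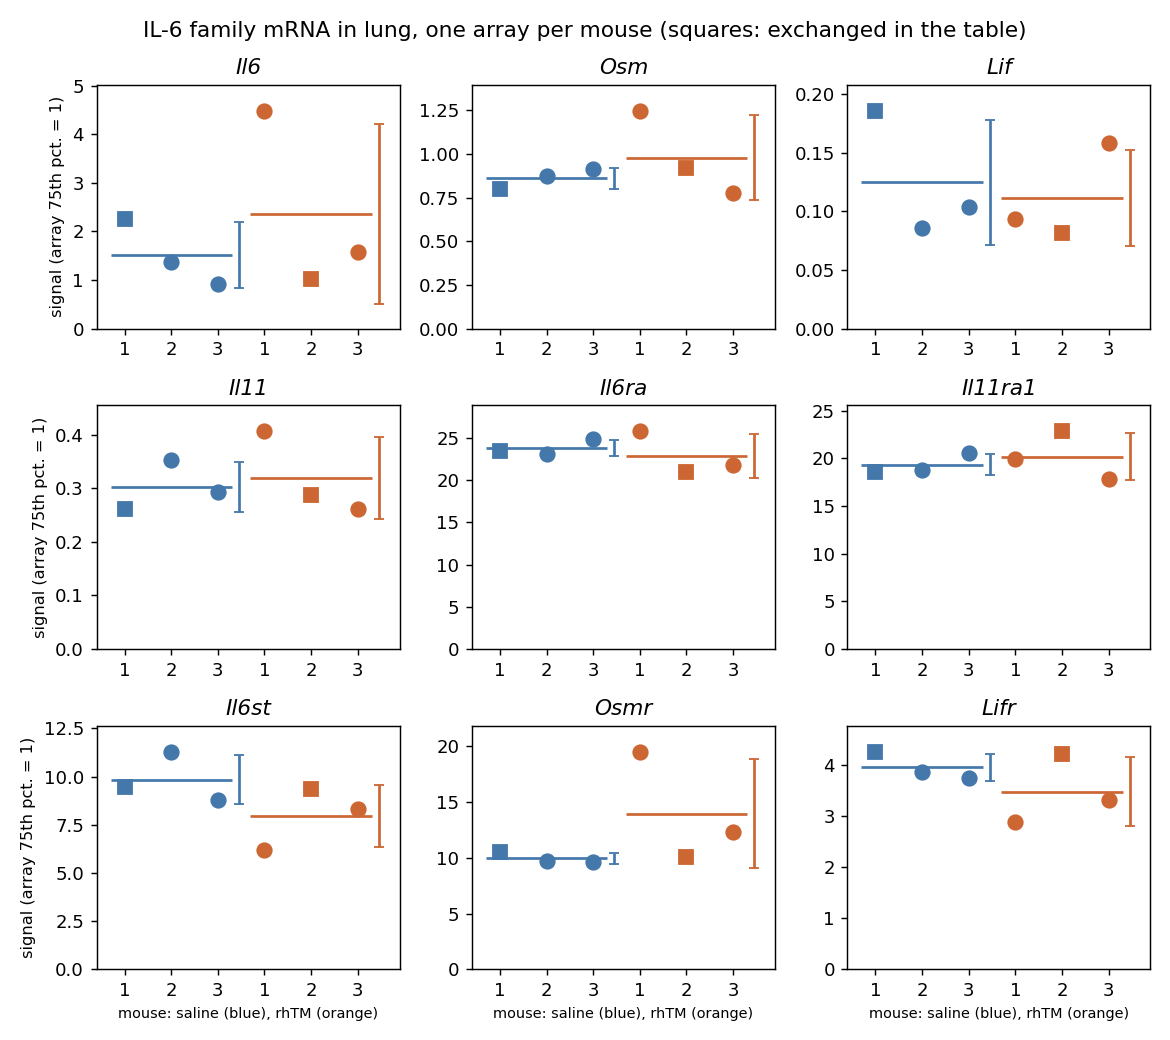
Signal of each of the 9 IL-6 family genes tested (y axis, multiples of the array's 75th percentile, from 0) in each mouse (x axis), by the scanner output. Points are single arrays, lines are group means and bars are SD (n = 3), and squares are the arrays exchanged in the authors' table. The array of rhTM replicate 1 is the highest for Il6 (4.48) and Osmr (19.5) and the lowest for Il6st (6.19) and Lifr (2.89).

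Among the ligands, Il6 varied most between mice. Its signal was 2.25, 1.37 and 0.917 in saline replicates 1, 2 and 3, and 4.48, 1.02 and 1.58 in rhTM replicates 1, 2 and 3. The highest array was an rhTM array, but the other two rhTM arrays lay within the saline range, so the groups overlapped. The mean was 2.36 ± 1.86 with rhTM and 1.51 ± 0.679 with saline (SD, n = 3). This was a log2 fold change of 0.45 (standard error 0.58, 95% interval -0.92 to 1.82; limma's adjusted p = 0.9999; two-sided exact permutation p = 0.6). Without rhTM replicate 1 the log2 fold change was -0.16. A second Il6 probe had the same order at its top, with 2.04 on rhTM replicate 1 and 0.441 to 0.902 on the other arrays.
By the authors' table, the exchanged arrays moved the Il6 value of 2.25 to the rhTM group and that of 1.02 to the saline group. The mean was then 2.77 ± 1.52 with rhTM and 1.10 ± 0.236 with saline (SD, n = 3). Every rhTM array then lay above every saline array, with a log2 fold change of 1.21 (standard error 0.38, 95% interval 0.30 to 2.13; limma's unadjusted p = 0.0170 and adjusted p = 0.314; exact permutation p = 0.10). With the slide as a block, the table gave Il6 a log2 fold change of 2.05 (limma's adjusted p = 0.0404), a value that rests on rhTM replicate 1, since no other rhTM array then shares a slide with saline arrays. Leaving out both exchanged arrays gave a log2 fold change of 1.25 (adjusted p = 0.672 from limma). The size of the Il6 difference thus depended on which mouse each of these arrays came from. In no assignment was Il6 lower in the rhTM-treated group as a whole, while within slide 2 the scanner output put Il6 lower with rhTM, by a log2 difference of -0.51 between 1 array of each group, and within slide 1 higher, by 0.93 between 2 arrays of each.

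Osm, the gene of oncostatin M, which myeloid cells secrete, gave 0.797, 0.871 and 0.916 in saline-treated mice and 1.24, 0.917 and 0.774 in rhTM-treated mice. The rhTM arrays took both the highest and the lowest place. Osm had a log2 fold change of 0.16 (standard error 0.19, 95% interval -0.30 to 0.61), and 0.023 by the table (0.47 with the slide block). A further Osm probe stayed too close to background on all arrays to be used.
Il11, a cytokine of stromal and epithelial cells, gave 0.261, 0.352 and 0.294 with saline and 0.406, 0.289 and 0.262 with rhTM. Apart from the highest value, on rhTM replicate 1, the rhTM arrays lay inside the saline range. Il11 had a log2 fold change of 0.063 (standard error 0.20, 95% interval -0.42 to 0.55), which was -0.034 by the table (0.39 with the slide block).

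In the scans as labelled, Lif, the gene of leukaemia inhibitory factor, was ordered by slide rather than by treatment. Its signal was 0.186, 0.0857 and 0.103 with saline and 0.0934, 0.0819 and 0.158 with rhTM. Both arrays of slide 2, saline replicate 1 and rhTM replicate 3, lay above all 4 arrays of slide 1, as did 13% of all genes tested. Scans as labelled gave Lif a log2 fold change of -0.15 (standard error 0.36, 95% interval -0.997 to 0.70). By the table both high arrays belonged to rhTM-treated mice, and the log2 fold change was 0.64 (standard error 0.26; unadjusted p = 0.0475 and adjusted p = 0.354 from limma). In that assignment the slide and the treatment cannot be told apart for these arrays, and with the slide as a block the value was 0.056. Of 5 T cell markers, Cd4 alone was higher on both slide 2 arrays than on every slide 1 array, at 22.6 and 19.4 against 3.01 to 4.19. Cd3e, Cd3d, Cd3g and Cd8a were not, and Cd8a was lowest on both. The summed level of all 5 was 25.1 and 22.1 on slide 2 and 6.09 to 6.64 on slide 1, nearly all of the excess from Cd4, and its part in the Lif values was not tested. Conversely, 3 members (Osm, Il11 and Il11ra1) were lower on both slide 2 arrays than on every slide 1 array, as were 19.7% of all genes.

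By their brightest probes, the ligand-binding receptor chains differed little between mice. Il6ra, the IL-6 receptor, gave 23.5, 23.1 and 24.9 with saline and 25.8, 20.9 and 21.8 with rhTM. All 6 arrays lay within 1.23-fold, and the log2 fold change was -0.065 (standard error 0.13, 95% interval -0.37 to 0.24). A dimmer Il6ra probe gave -0.31 and ranged more widely, from 0.260 to 0.430. For the brighter probe the table gave 0.044.
Il11ra1, the IL-11 receptor, gave 18.6, 18.8 and 20.6 with saline and 19.9, 22.8 and 17.8 with rhTM. These arrays lay within 1.28-fold. Its log2 fold change was 0.057 (standard error 0.13, 95% interval -0.26 to 0.38) and by the table -0.14.

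Of the signalling chains, Osmr had the larger mean with rhTM, and Il6st and Lifr had the smaller, but all groups overlapped by the scanner output. Osmr gave 10.5, 9.72 and 9.61 with saline and 19.5, 10.1 and 12.3 with rhTM. Of the rhTM arrays, 2 lay above every saline array and the remaining one within the saline range. The mean was 14.0 ± 4.90 with rhTM and 9.94 ± 0.479 with saline (SD, n = 3). On the log2 scale the fold change was 0.43 (standard error 0.24, 95% interval -0.14 to 1.01; exact permutation p = 0.2). By the table the rhTM arrays all lay above the saline arrays, with a log2 fold change of 0.47 (limma's adjusted p = 0.395; exact permutation p = 0.10), and of 0.99 with the slide as a block (limma's adjusted p = 0.0392), which likewise rests on rhTM replicate 1. Without rhTM replicate 1 the scanner value was 0.17. The second Osmr probe gave 0.776 on rhTM replicate 1 and 0.294 to 0.400 on the other arrays.
Il6st, which encodes the shared chain gp130, gave 9.47, 11.3 and 8.79 with saline and 6.19, 9.34 and 8.33 with rhTM. The lowest place was taken by rhTM replicate 1, and rhTM replicate 3 was next. For Il6st the log2 fold change was -0.32 (standard error 0.19, 95% interval -0.77 to 0.13), -0.31 by the table (-0.66 with the slide block, limma's adjusted p = 0.0929) and -0.15 without rhTM replicate 1. A dimmer Il6st probe gave -0.10 and had rhTM replicate 3 as its highest array.
The marker genes of mesothelium, the cell layer that covers the lung, had a similar order to the brighter Il6st probe. Their 5 genes summed to 32.9, 50.8 and 36.0 with saline and 25.5, 36.6 and 22.8 with rhTM. These sums were highest on saline replicate 2 and lowest on rhTM replicates 1 and 3, as Il6st was, and as Tyk2 was among the genes given further on. All 5 had a lower mean with rhTM, Upk3b and Wt1 with an unadjusted p under 0.05 and 0 after adjustment in limma. Their part in the Il6st and Tyk2 values was not tested.
Lifr, the LIF receptor, gave 4.26, 3.87 and 3.75 with saline and 2.89, 4.22 and 3.32 with rhTM. Again rhTM replicates 1 and 3 were lowest, while rhTM replicate 2 lay within the saline range. The log2 fold change was -0.20 (standard error 0.17, 95% interval -0.60 to 0.19) and by the table -0.19 (-0.45 with the slide block). It was -0.077 without rhTM replicate 1 and -0.35 without rhTM replicate 2. The other Lifr probes gave -0.33 and 0.038, and the latter was highest, not lowest, on rhTM replicate 1.
Il31ra, the IL-31 receptor chain, was flagged well above background on saline replicate 1 only, at 0.0203, so no fold is given. Its signal was 0.0239 and 0.0254 on rhTM replicates 1 and 3, where the lowest signals so flagged were 0.0282 and 0.0295. On saline replicate 1 the lowest was 0.0172.
Lif and Osm are neighbours on chromosome 11, Osmr and Lifr on chromosome 15, and Il6st and Il31ra on chromosome 13, with 0 protein-coding genes starting between them in the RefSeq table. Neither tested pair moved together over the arrays, since Lif was highest where Osm was low, and Osmr was highest where Lifr was lowest.

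**Figure D2:**
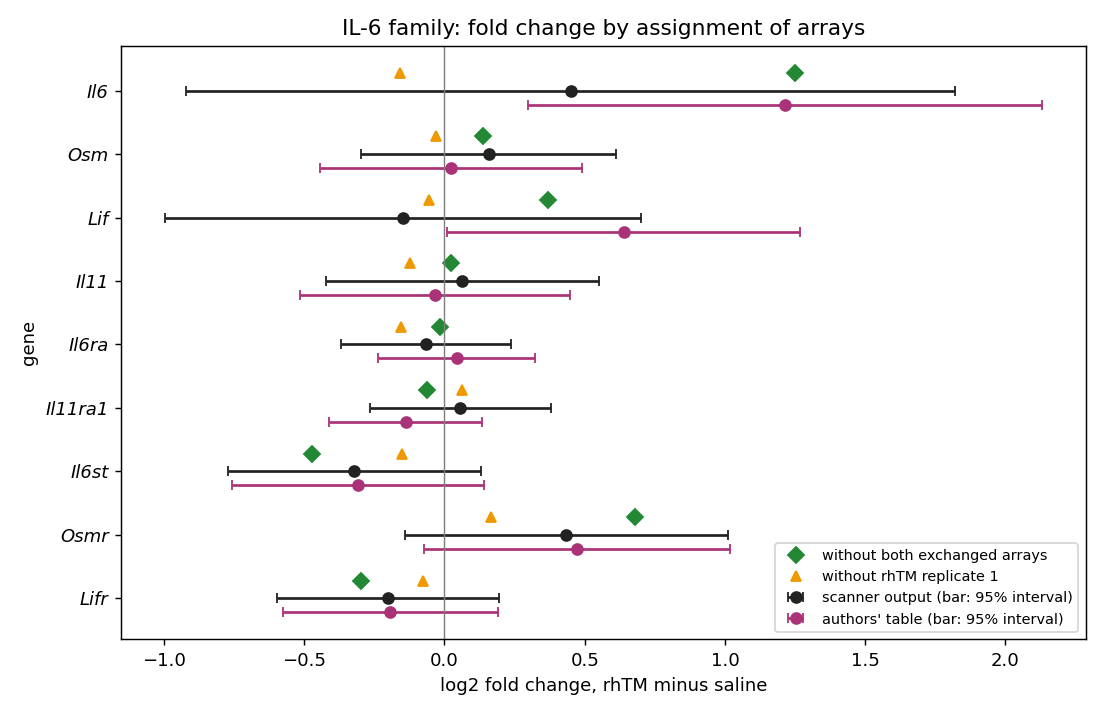
Log2 fold change of each IL-6 family gene, rhTM minus saline (x axis), by gene (y axis). Circles with 95% intervals from limma are the scanner output (black) and the authors' table (purple). Diamonds leave out both exchanged arrays and triangles leave out rhTM replicate 1. Point values of Il6 range from -0.16 to 1.25 and those of Il6st stay below 0, while both Il6st intervals cross 0.

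For counts of groups that did not overlap, the members were set against all genes tested. By the scanner output 483 genes (2.95%) had every rhTM array above every saline array and 421 (2.57%) had every rhTM array below, and 0 of 9 members were among either. By the table the counts were 1580 (9.68%) and 1959 (12%) of 16320 genes. Of the 9 members, 2 were separated in the table, Il6 and Osmr, both higher with rhTM. Over the 9 members the median log2 fold change was 0.057 (0.023 in the table), beside 0.0026 (-0.025 in the table) for all genes.

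The array of rhTM replicate 1 was the highest of the 6 for 5 members (Il6, Osm, Il11, Il6ra and Osmr) and the lowest for Il6st and Lifr. It was the highest array for 29.8% of all genes and the lowest for 26.6%, so this array often stood at an end. A rule chosen after its values were seen asked where rhTM replicate 1 lay at least 1.5-fold above every other array. That held for 429 genes (2.62%), among them Il6 and Osmr. Another 542 genes (3.31%) lay at least 1.5-fold below every other array, with 0 members among them. By the same rule, each of the other arrays stood above all the rest for 34 to 119 genes and below them for 9 to 101. The ratio of rhTM replicate 1 to the next highest array was 1.99 for Il6 and 1.58 for Osmr. Both the scans and the table assigned this array to rhTM replicate 1.

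Of the genes that carry signals of these receptors, Stat3 was high on the same array as Il6 and Osmr, and Tyk2 was low on it. Of 15 transducer genes tested, 8 had a higher mean with rhTM and 7 a lower one, 0 passed the adjustment, and the median log2 fold change was 0.063. Stat3 gave 11.4, 16.6 and 16.4 with saline and 30.4, 16.0 and 14.3 with rhTM. Outside rhTM replicate 1 the rhTM arrays lay within the saline range. Stat3 had a log2 fold change of 0.39 (standard error 0.31). By the table it was 0.064, or 0.90 with the slide as a block (limma's adjusted p = 0.0488).
Jak1, a kinase bound to gp130, ranged from 11.4 to 13.5 over the 6 arrays, and Jak2 from 1.71 to 2.26. Tyk2, a further kinase of the family, gave 0.916, 1.14 and 0.861 with saline and 0.593, 0.880 and 0.614 with rhTM. It was lower on 2 rhTM arrays than on every saline array, and rhTM replicate 2 lay inside the saline range. Its log2 fold change was -0.50 (standard error 0.20; unadjusted p = 0.0419 and adjusted p = 0.9999 from limma), and -0.46 by the table. Stat5a gave 8.75 and 8.55 on rhTM replicates 1 and 3 and 6.39 to 6.67 on the others, and the adaptor gene Shc1 was likewise highest on these arrays, at 10.1 and 9.74 against 7.78 to 8.42.

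Among 9 feedback genes tested, 4 had a higher and 5 a lower mean with rhTM, and 0 passed. Socs3, which blocks JAKs at gp130, gave 25.1, 26.3 and 21.3 with saline and 53.6, 23.4 and 23.2 with rhTM. On rhTM replicate 1 it was 2.04 times the next highest array, and elsewhere the groups lay in the same range. The log2 fold change was 0.35 (standard error 0.33), and without that array -0.054. The table gave Socs3 0.42, or 1.19 with the slide as a block (limma's adjusted p = 0.0378). Ptpn2, a phosphatase that acts on JAKs and STATs, gave 8.53 on rhTM replicate 1 and 4.55 to 5.20 on the other arrays. Socs2 gave 15.9 and 16.0 on rhTM replicates 1 and 3 and 10.3 to 12.6 elsewhere. Pias3, an inhibitor of STAT3, ranged from 0.443 to 0.635, with its lowest value on rhTM replicate 1.

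Genes known to respond to IL-6 family cytokines were listed as 24, of which 21 were tested. Of these, 16 had a higher mean with rhTM and 5 a lower one, 0 passed the adjustment, and their median log2 fold change was 0.14. Without rhTM replicate 1 the median was 0.0043, and by the table it was 0.26 with 19 higher. This array was the highest for 15 of the 21 genes, and by the same rule as above it stood apart for 6 of them, Pim1, Fos, Il4ra, Timp1, Fgg and Orm1.
The acute phase gene Orm1 gave 25.7 on rhTM replicate 1 and 9.29 to 15.5 on the others. Pim1, a kinase gene induced by STAT3, gave 22.3 against 11.0 to 12.2, and Timp1, a protease inhibitor gene induced by oncostatin M, gave 80.9 against 29.3 to 43.9. Fos gave 8.21 against 4.36 to 5.25. Its rhTM scans were all higher than its saline scans, as for 2.95% of all genes, but not by the table. Hp, which encodes haptoglobin, gave 326 on rhTM replicate 1 and 262 on rhTM replicate 3, against 206 to 229 on the other arrays. Fgg, a fibrinogen chain made mainly in liver, gave 1.48 on rhTM replicate 1 and 0.0189 to 0.205 elsewhere. Its 0.0189, on rhTM replicate 2, was below the lowest signal well above background on that array, 0.0233. All of these genes had their highest value on the array of rhTM replicate 1, and for Orm1 and Hp rhTM replicate 3 also lay above every saline array.

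**Figure D3:**
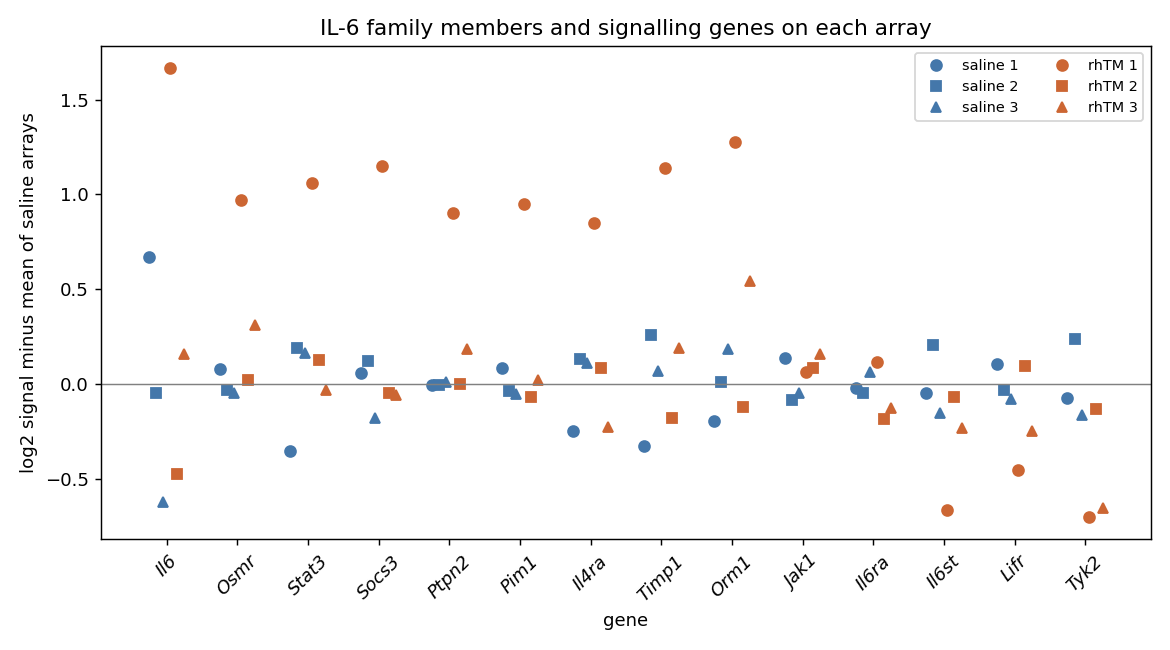
Log2 signal of each gene minus its mean over the 3 saline arrays (y axis), for IL-6 family members and signalling genes (x axis). Each point is 1 array, saline in blue and rhTM in orange; rhTM replicate 1 (orange circle) lies above all other arrays for Il6, Osmr, Stat3, Socs3, Ptpn2, Pim1, Il4ra, Timp1 and Orm1, and below them for Il6st, Lifr and Tyk2. Genes shown outside the naming rule were picked after their values were seen.

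Markers of other cells on rhTM replicate 1 were summed over each list. The platelet list of 4 genes summed to 25.6 against 9.53 to 13.7 on the other arrays, and 24.7 of this was Pf4, while Itga2b and Gp1bb were not highest there. The endothelial list of 6 summed to 145 against 95.4 to 116, of which Cldn5 made 93.7, while Pecam1 (2.47) and Tek (1.08) were lowest on this array. The neutrophil list of 6 summed to 1107 against 863 to 1032, with Retnlg at 139 against 68.7 to 93.9, and 3 of the 6 were highest on this array, S100a8, S100a9 and Cxcr2 not among them. The B cell list of 4 summed to 4.77 against 2.59 to 4.74. Erythroid (650), macrophage and monocyte (610), fibroblast (118), ciliated (54.1), smooth muscle (19.1), T cell (6.56) and lung (1537) sums on this array lay inside the range of the others. Of the lung markers, 5 of 6 were lowest on this array, as were 4 of 8 macrophage and monocyte markers. Among 6 fibroblast markers, 3 were lowest on this array and 2 highest. Of the erythroid genes, 3 of 4 were highest there, with Alas2 at 8.56 against 2.51 to 4.55. No listed marker that was tested was below background on this array, and the part of these cells in the Il6, Osmr and Socs3 values was not tested.

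Proteases that release soluble IL-6 receptor from cells were measured next. Adam10 ranged from 6.39 to 7.48 over the 6 arrays and Adam17 from 1.73 to 2.34. By the scanner output the groups overlapped for both, while in the table every rhTM value of Adam17, and of its partner gene Rhbdf1, was below every saline value, as for 12% of all genes. Of 5 shedding genes tested, 2 had a higher mean with rhTM and 3 a lower one, with a median log2 fold change of -0.0075. Timp3, an inhibitor of Adam17, gave 62.3, 60.1 and 56.6 with saline and 64.4, 63.8 and 75.1 with rhTM. All rhTM arrays were above the saline arrays by the scanner output, as for 2.95% of all genes, but not by the table. Rhbdf2, which brings Adam17 to the cell surface, ranged from 5.18 to 7.70, with both slide 2 arrays highest.

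A list of 13 genes that control the Il6 mRNA or its transcription was tested. Of these, 10 had a higher mean with rhTM and 3 a lower one, 0 passed, and the median log2 fold change was 0.065, or 0.0013 without rhTM replicate 1. Zc3h12a, whose product Regnase-1 degrades Il6 mRNA, gave 2.18, 1.91 and 1.25 with saline and 1.63, 1.34 and 1.87 with rhTM. The rhTM arrays lay within the saline range. Zfp36l1, of the same family as the mRNA-decay factor tristetraprolin, gave 38.8 and 34.7 on rhTM replicates 1 and 3 and 24.7 to 30.3 on the other arrays. Atf3, a repressor of Il6, was lowest on rhTM replicate 1, at 1.22 against 1.47 to 2.73, and Nfkb1 ranged from 0.539 to 0.889. In the table, 4 of these 13 genes had all rhTM values above all saline values, beside 9.68% of all genes, and in the scans 1 had, Rc3h2, beside 2.95%.

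**Figure D4:**
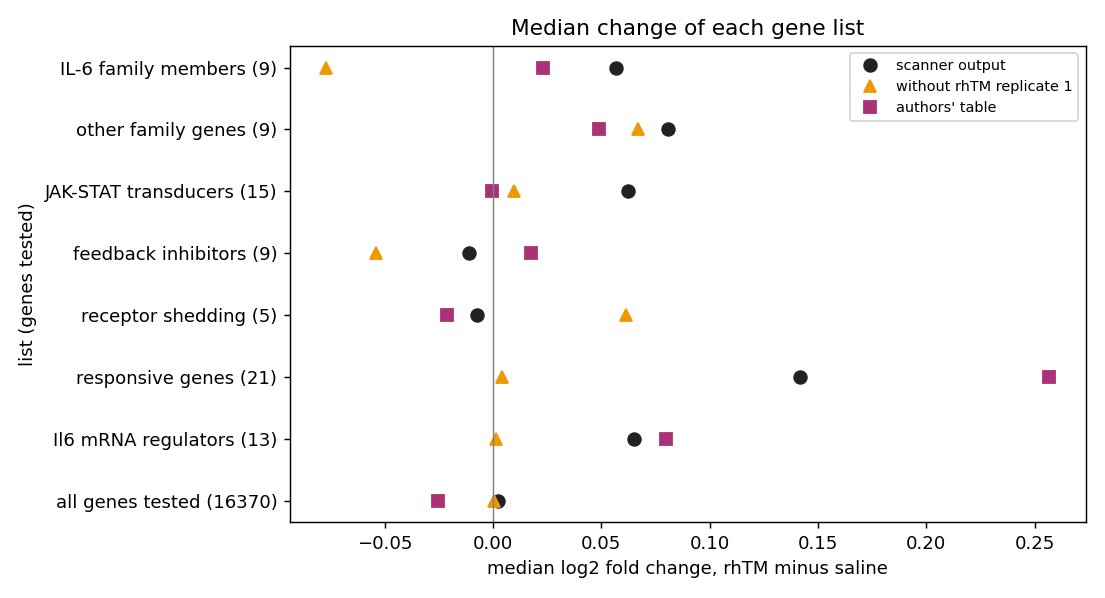
Median log2 fold change, rhTM minus saline (x axis), of each gene list with the number of genes tested (y axis). Circles are the scanner output, triangles the same without rhTM replicate 1 and squares the authors' table; the responsive genes have medians of 0.14, 0.0043 and 0.26.

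Of 11 other genes of the family, 9 were tested, 5 with a higher and 4 with a lower mean with rhTM, 0 passed, and the median log2 fold change was 0.081. Cntf, the ciliary neurotrophic factor gene, ranged from 0.508 to 0.607. Clcf1, the gene of another ligand of the CNTF receptor, was highest on rhTM replicate 3, at 0.348 against 0.152 to 0.228.

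The genes whose pattern over the 6 arrays was nearest to each ligand were found by the mean absolute difference of log2 values centred on each gene's own mean. For Il6 they were Gfod1 (0.17), Srcap (0.23) and Rtp2 (0.24), beside a median of 0.65 over all genes. Nearest to Osm were Xpo4, Spcs2 and Dnajc14, at 0.024 to 0.027 against a median of 0.22. Those nearest to Il11 were Sdc4, Gm15706 and Septin9, at 0.035 to 0.040 against a median of 0.23. Around Lif stood Gm15764, Ralgps2 and Eomes, at 0.058 to 0.062 against a median of 0.45, and all of these were highest on both slide 2 arrays. With 6 arrays and 16370 genes, close matches of this kind are a description only.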

How the data were processed

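Lungs of 3 mice given saline and 3 given rhTM were measured on 1-colour Agilent arrays. The authors deposited scanner output of Feature Extraction 10.7.3.1 (9.1 in the labels), whose processed signal is an intensity corrected for background within each array, and a table of the same intensity values not scaled between arrays. Flags for signals well above background were deposited with them. Spots of a probe were averaged, and 398 of 56605 probes were left out because an array had flagged all their spots as outliers. Log2 signals were centred on each array's 75th percentile. Accessions of 32994 probes were matched to RefSeq genes (GRCm38.p6). The array design used another build, so no probe coordinates are given. The filter kept 36061 probes that were well above background in every array of 1 group or both, and the brightest stood for its gene.

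Testing used limma 3.58.1 in R 4.3.3 with Benjamini-Hochberg adjustment over all genes at 0.05, and single members by an exact two-sided permutation test. The fits were tested on simulated data. Samples were grouped by their labels, which do not say that replicate numbers pair mice. Members, lists and tests were chosen with earlier results of these data known. Genes were named by rule: all members, the 3 genes of each pathway list with the smallest unadjusted p, Stat3, Jak1, Jak2, Tyk2, Socs3, Adam10, Adam17 and Zc3h12a, and the 3 genes nearest each ligand (1 gene so named is not reported here), while Pim1, Il4ra, Timp1, Fgg, Cd4, Cd3e, Cd3d, Cd3g, Cd8a, Alas2, Retnlg, S100a8, S100a9, Cxcr2, Pf4, Itga2b, Gp1bb, Cldn5, Pecam1, Tek, Upk3b, Wt1, Rhbdf1 and Rc3h2 were named after their values were seen. Alternatives were normexp with an offset of 50 (on median spot signals), quantile normalization, other percentiles, filters and probes, the table, blocks for slide and replicate, arrays left out and the methods' t-test. The number of arrays limits precision.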

Additional observations from a re-analysis of the deposited data

How the results depend on the processing

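Under normexp, quantile normalization, the other percentile, no filter, the stricter filter, the slide block and the mean of all probes, every member tested kept the direction of its log2 fold change, and 0 members passed. The labels do not say whether replicate numbers pair mice. Deviations of same-numbered arrays correlated at -0.30, 0.44 and -0.45. These values cannot decide on pairing, because replicates 1 and 3 had their arrays on different slides and replicate 2 on the same slide. The replicate block left 0 genes called and all fold changes as they were (Il6 0.45, adjusted p = 0.9999 from limma).
The authors' table reversed Lif (0.64), Il11 (-0.034), Il6ra (0.044) and Il11ra1 (-0.14) and gave 3539 genes and 2 members without overlap, against 904 and 0. Without both exchanged arrays Lif (0.37) and Il11ra1 (-0.062) reversed, with 6751 genes and 4 members (Il6, Osmr, Il6st and Lifr) free of overlap between 2 arrays and 2. Adding the slide block to the table called 432 genes and 2 members, Il6 (2.05, adjusted p = 0.0404 from limma) and Osmr (0.99, adjusted p = 0.0392), as well as Stat3 (0.90) and Socs3 (1.19), and reversed Lif (0.056), Il6ra (0.17) and Il11ra1 (-0.052). There the contrast rests on rhTM replicate 1, the lone rhTM array on the slide that holds the saline arrays.
Leaving out each array in turn called 0 genes, with 1449 to 3990 genes and 0 to 3 members free of overlap. Log2 fold changes ranged from -0.16 to 0.91 for Il6, -0.030 to 0.31 for Osm, -0.43 to 0.18 for Lif, -0.12 to 0.19 for Il11, -0.035 to 0.14 for Il11ra1, 0.17 to 0.64 for Osmr, -0.45 to -0.15 for Il6st, -0.35 to -0.077 for Lifr, -0.16 to -0.0059 for Il6ra, 0.048 to 0.59 for Stat3, -0.68 to -0.38 for Tyk2 and -0.054 to 0.55 for Socs3. Il6, Osm, Il11 and Socs3 turned negative without rhTM replicate 1, Lif positive without saline replicate 1 or rhTM replicate 2, Il11 negative without saline replicate 1 and Il11ra1 negative without rhTM replicate 2. Another Lifr probe, an alternative added after the data were seen, gave 0.038.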
